A study of Mus musculus with 6 samples.

Results

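The keratins are the intermediate filament proteins of epithelial cells, and 52 of the 23420 genes in the deposited expression table carry a keratin symbol (Krt followed by a number). Members were taken by symbol alone and not by their values. The choice of keratins, of the gene lists and of the tests was made with earlier results of these data known. The libraries came from ileal tuft cells of C57BL/6J mice that carried Gfi1b-eGFP on 1 allele and were between 6 and 12 weeks old. In these mice Gfi1b, the gene of a transcription factor that marks tuft cells within the intestinal epithelium, drives green fluorescent protein. Living cells with GFP and the epithelial marker EpCam, and without the blood cell marker CD45, were sorted. The 6 libraries, labelled as mouse replicates 1 to 6, form 1 group and all carry this allele. There is no second genotype, treatment or non-tuft epithelium among them, so genes were compared with one another within each library. All values are TPM, transcripts of a gene as a share of all transcripts in a library scaled to a fixed sum. TPM is corrected for transcript length, and levels of different genes are compared on the assumption that reads cover whole transcripts. The methods describe SMART-Seq2 libraries but the labels name further preparations, and whether the assumption holds was not tested.

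Keratins assemble as obligate pairs of 1 acidic chain (type I) and 1 basic or neutral chain (type II), and these pairs build the filaments that give epithelial cells their mechanical strength. Simple epithelia such as the lining of the intestine are known for KRT8 as the type II chain and for KRT18, KRT19 and KRT20 as its type I partners. Stratified epithelia, hair follicles and nails use other pairs, such as KRT5 with KRT14 or KRT1 with KRT10. Tuft cells are known for strong KRT18 staining.

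The libraries were alike in the ranking of genes over the whole table. Between 13044 and 13308 genes per library were listed above 0, and the Spearman correlation across genes was 0.915 to 0.937 over the 15 library pairs. It covers all genes of the table, 32.9% of them at 0 in every library, and these shared zeros can raise it. TPM keeps no sequencing depth, so a gene is described only as listed at 0 and no detection limit can be given. The ribosomal RNA precursor Rn45s took 23.1% to 32.6% of each library, which lowers the TPM of every other gene by a share that differs between libraries. Defining tuft cell genes were present throughout, with all 13 genes of a tuft list that were found in the table above 0 in every library and a summed level of 7136 to 12022 TPM. Markers of other epithelial cells were present as well. Their summed levels were 7474 to 15637 TPM for 8 enterocyte genes, 1053 to 5118 TPM for 7 goblet cell genes, 4089 to 26976 TPM for 7 Paneth cell genes, 379 to 536.5 TPM for 9 enteroendocrine genes and 336 to 813 TPM for 6 stem cell genes. Sct, the secretin gene, took 331 to 474 TPM of the enteroendocrine sum, and the other 8 genes summed to 10.3 to 128 TPM. All genes of these lists were above 0 in every library except 6 of the 9 enteroendocrine genes. Lymphocyte genes summed to 122 to 286 TPM, with 5 of 6 above 0 in every library. Ptprc, the CD45 gene, took 74.2 to 171 TPM of this sum and was highest in replicates 1 and 2. Gzma ran the other way, from 10.4 TPM in replicate 1 to 158 TPM in replicate 6. The 6 stromal genes were at 0 in 5 libraries and summed to 62.2 TPM in replicate 5, with Col1a2 at 0 there too. Other epithelial cells also make keratins, and the share of each cell type in the keratin values was not tested. In such bulk libraries, fewer cells of a type and less RNA per cell cannot be told apart.

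Of the 52 keratins, 19 were listed above 0 in at least 1 library, 9 in all 6 libraries, and 33 in none. Among all genes of the table, 67.1% were above 0 in at least 1 library and 47.2% in all 6, against 36.5% and 17.3% of the keratins. All 6 simple epithelial keratins, Krt7, Krt8, Krt18, Krt19, Krt20 and Krt23, were above 0 in every library. Of 20 keratins of stratified epithelia, 1 was (Krt10) and 15 were at 0 throughout, and of 24 keratins of hair and its inner root sheath, 1 was (Krt27) and 18 were at 0 throughout. The remaining 2 keratins, which were placed in no class, were Krt222, above 0 in every library, and Krt42, above 0 in 1. By type, 6 of 27 type I genes and 2 of 24 type II genes were above 0 in all libraries, and Krt222, a keratin-like gene, was left without a type.

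**Figure D1:**
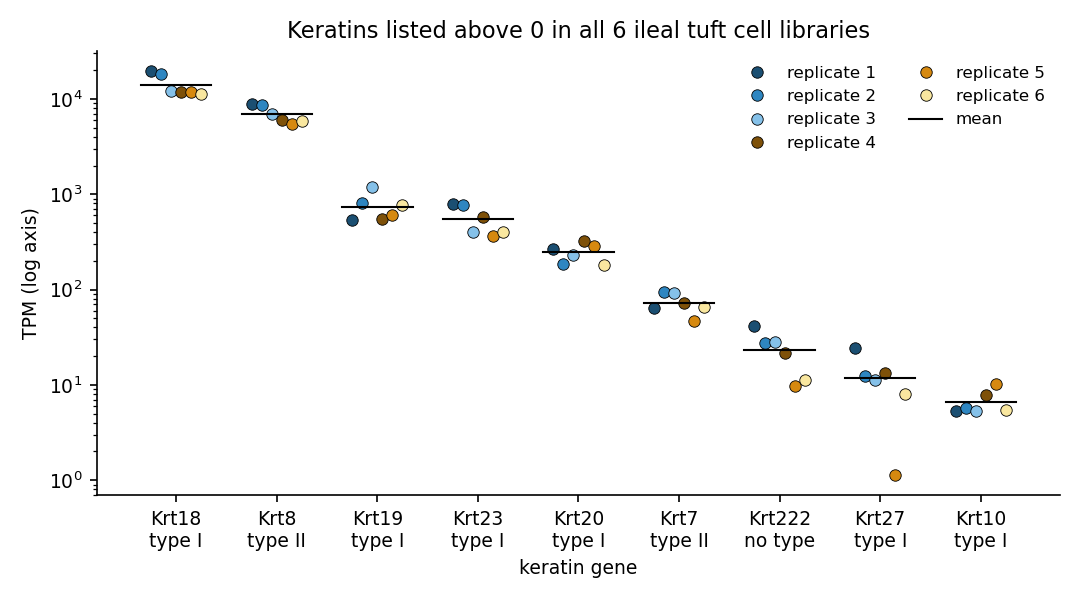
TPM on a log axis of the 9 keratins above 0 in all libraries, with 1 point per library and the mean as a line, ordered by mean. Krt18 and Krt8 lie at 5418 TPM or more in every library, the next keratin reaches at most 1191 TPM, and Krt27 ranges most widely, from 1.13 to 24.7 TPM.

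Krt18, the main type I keratin of simple epithelia, was the most abundant member in every library. It had 19664, 18076, 12216, 11942, 11953 and 11156 TPM in replicates 1 to 6, a mean of 14168 ± 3694 TPM (SD, n = 6). Replicates 1 and 2 were high and the other 4 lay close together. Krt18 ranked 3rd to 5th among all genes of a library. Krt8, its type II partner, had 8891, 8666, 6956, 5956, 5418 and 5813 TPM in replicates 1 to 6, a mean of 6950.1 ± 1506 TPM (SD, n = 6), and ranked 6th to 12th. It too was highest in replicates 1 and 2, with replicate 3 between these and the rest. The lowest Krt18 value was above the highest Krt8 value, so the levels of these genes did not overlap. Krt18 exceeded Krt8 in 6 of 6 libraries, with 1.76 to 2.21 times its TPM. On the log2(TPM + 1) scale the difference was 1.02 ± 0.128 (SD, n = 6), and it passed the two-sided exact sign-flip permutation test with p = 0.03125, the smallest that 6 libraries allow (adjusted p = 0.0347 over the 10 pairs compared). The mean difference was 1.01 within replicates 1 to 3 and 1.03 within replicates 4 to 6. These sets are not groups of the study and differed in the abundant transcript Gm20594, at a mean of 19253 TPM in the first and 53932 TPM in the second.

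Krt8 and Krt18 are neighbours in the genome as well as partners in the filament. On GRCm38, the assembly of the mm10 transcriptome that the authors used, Krt8 (ENSMUSG00000049382.10) lies on chromosome 15 from 101996698 to 102004482 on the minus strand. Krt18 (ENSMUSG00000023043.7) lies from 102028180 to 102032027 on the plus strand. The genes point away from each other across 23.7 kb that holds no protein-coding gene. A long non-coding RNA gene on the plus strand, Gm36026, shares 101 exonic bases with Krt8, and it has no row in the table. Krt18 is the only type I keratin found on that chromosome. The sequence at the starts of these 2 genes, the pair that dominates the keratin transcripts, is shown with that of Krt23 and Krt20, lower type I genes on the other cluster. It comes from RefSeq promoters (GRCm38.p6), in which 7 of the 9 keratins above 0 in all libraries were matched, and RefSeq starts can differ from the GENCODE gene ends given above. Each runs 5′ to 3′ on the strand of its gene over 120 bases, from 100 bases before the annotated start to 20 bases after it, with the letters TATAA on that strand in capitals.
Krt8, minus strand, chr15:102004323-102004442: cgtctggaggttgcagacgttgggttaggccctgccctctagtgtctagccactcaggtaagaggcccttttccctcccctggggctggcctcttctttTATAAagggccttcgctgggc
Krt18, plus strand, chr15:102028116-102028235: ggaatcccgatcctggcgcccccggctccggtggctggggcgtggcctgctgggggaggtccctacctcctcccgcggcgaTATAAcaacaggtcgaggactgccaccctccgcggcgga
Krt23, minus strand, chr11:99493101-99493220: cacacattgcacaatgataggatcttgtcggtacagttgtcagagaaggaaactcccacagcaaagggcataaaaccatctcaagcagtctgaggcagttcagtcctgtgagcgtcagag
Krt20, minus strand, chr11:99438134-99438253: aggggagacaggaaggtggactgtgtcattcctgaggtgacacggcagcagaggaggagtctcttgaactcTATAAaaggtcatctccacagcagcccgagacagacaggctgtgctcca
TATAA begins 1 base before the annotated start of Krt8, 19 bases before that of Krt18 and 29 bases before that of Krt20, and Krt23 has none in these 120 bases. These are distances from the RefSeq starts. By the GENCODE gene ends given above, the TATAA of Krt8 and that of Krt18 lie inside the gene, after its start. Of 32851 promoters in the table, 8.30% hold TATAA on the gene's strand in the same 120 bases. In the whole window of 300 bases, searched on both strands, none of the 4 genes holds the GC box GGGCGG (35.7% of all promoters), CCAAT (37.4%), the octamer ATGCAAAT that POU factors bind (1.74%) or the AP-1 letters TGANTCA (7.81%). The reverse-strand match of TATAA at Krt8 overlaps the one shown. Among the matched genes not shown, Krt7 holds GGGCGG at 4 places and Krt10 holds CCAAT at 1. Within the 120 bases TATAA begins 26 bases before the annotated start of Krt10 and 15 before that of Krt27, and Krt7 has none.

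The remaining type I keratins were far below Krt18. Krt19, a short type I keratin without a tail domain that is known from ducts and intestinal crypts, had 538, 801, 1191, 546, 599 and 779 TPM in replicates 1 to 6, a mean of 742 ± 248 TPM (SD, n = 6). It was highest in replicate 3 and lowest in replicate 1, an order unlike that of Krt18. Krt23, another type I keratin, had 789, 771, 399.6, 574, 363 and 405 TPM in replicates 1 to 6, a mean of 550.3 ± 193 TPM (SD, n = 6). Like Krt18 and Krt8, it was highest in replicates 1 and 2. Krt20, a type I keratin known from mature cells of the intestinal villus, had 268, 187, 228, 320.0, 289 and 183 TPM in replicates 1 to 6, a mean of 246 ± 55.8 TPM (SD, n = 6). Its values varied least between libraries among the type I keratins named here, with a coefficient of variation of 22.7%, and were highest in replicates 4 and 5.

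Krt18 exceeded each of these genes in every library, as did Krt8. The TPM of Krt18 was 10.3 to 36.6 times that of Krt19, 20.8 to 32.9 times that of Krt23 and 37.3 to 96.4 times that of Krt20. Krt19 exceeded Krt20 in 6 of 6 libraries, by 1.56 ± 0.697 on the log2(TPM + 1) scale (SD, n = 6), and Krt23 exceeded Krt20 in 6 of 6 by 1.12 ± 0.605 (SD, n = 6). Of the 10 pairs among Krt8, Krt18, Krt19, Krt20 and Krt23, 9 differed in the same direction in all libraries and passed the exact sign-flip permutation test (p = 0.03125 and adjusted p = 0.0347 each). Any pair with the same direction in all 6 libraries gets this p, whatever the size of its difference. The adjusted p then depends only on how many of the 10 pairs do so. The exception among the 10 pairs was Krt19 and Krt23. Krt19 was higher in 4 of 6 libraries and Krt23 in replicates 1 and 4, with a mean difference of 0.44 ± 0.776 (SD, n = 6) and single libraries from -0.55 to 1.57 (p = 0.219 by the exact sign-flip test, also after adjustment). Their order was not resolved by these libraries.

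Krt7, a type II keratin of glandular and ductal epithelia, was the only type II gene besides Krt8 above 0 in every library. It had 64.7, 93.8, 92.5, 72.2, 46.9 and 66.1 TPM in replicates 1 to 6, a mean of 72.7 ± 18.0 TPM (SD, n = 6). It lay below Krt20 in every library, without overlap of their ranges. Krt8 therefore made up 98.6% to 99.3% of all type II keratin TPM. On the type I side, Krt18 made up 86.9% to 92.4%, and Krt19, Krt20 and Krt23 together 7.49% to 12.9%.

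The summed type I keratins exceeded the summed type II keratins in every library, although filaments contain equal numbers of both chains. Type II genes summed to 8956, 8759, 7058, 6030.2, 5466 and 5885 TPM in replicates 1 to 6. Type I genes summed to 21289, 19855, 14054, 13408, 13220.3 and 12537 TPM. The ratio of type I to type II was 2.38, 2.27, 1.99, 2.22, 2.42 and 2.13, a mean of 2.23 ± 0.158 (SD, n = 6). This ratio varied by 7.09% between libraries (coefficient of variation), while the summed keratin TPM varied by 23.2%. Transcript numbers of 2 genes need not match the amounts of their proteins, which were not measured here. All keratins together took 1.84% to 3.03% of the TPM of a library. Replicates 1 and 2, at 3.03% and 2.86%, lay above the other 4, which ran from 1.84% to 2.11%. With Rn45s left out of the total they still did, at 4.05% and 3.81% against 2.65% to 2.77%.

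**Figure D2:**
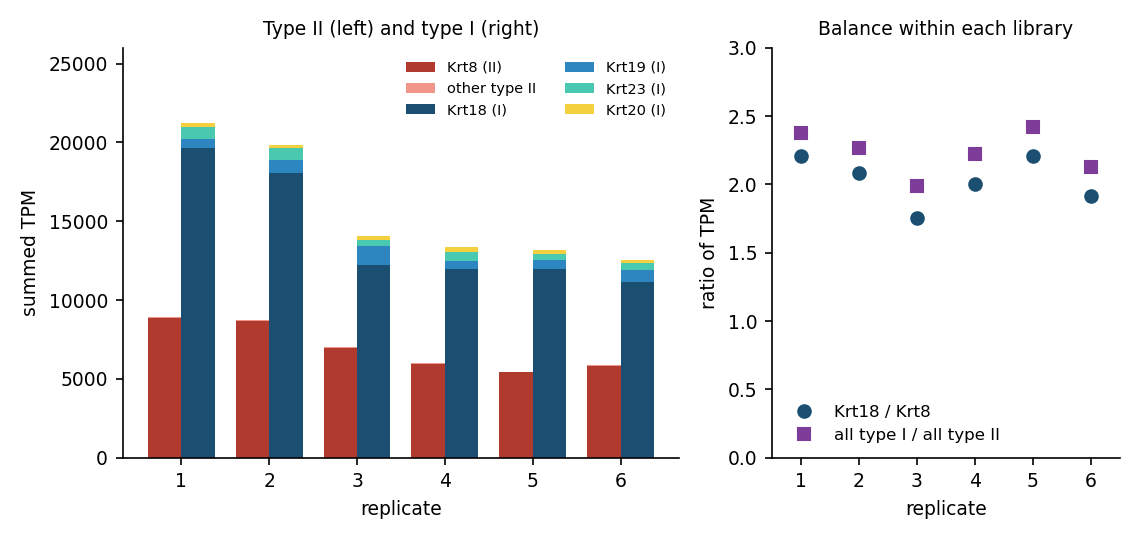
Left, summed TPM of type II keratins (left bar) and of Krt18, Krt19, Krt23 and Krt20 (right bar) in each library. Right, the ratio of Krt18 to Krt8 and of all type I to all type II keratins per library. The bars of replicates 1 and 2 are the tallest, while the ratios stay between 1.76 and 2.42 in all libraries.

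Some keratins share sequence with other genes, and how reads from such stretches were assigned cannot be seen from TPM. In the GENCODE M21 transcripts, 39.7% of the 25-base stretches of Krt8 also occur in transcripts of other genes on either strand, most of them in the processed pseudogene Krt8-ps (34.6%). For Krt18 the share was 18.3%, most of it in the gene model Gm5200 (14.6%). Neither of these is in the deposited table, so reads from them could be counted under Krt8 or Krt18. The share was 3.34% for Krt19, 0.105% for Krt20 and 0 for Krt23.

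The remaining 3 keratins above 0 in every library were low. Krt222 had 41.2, 27.7, 28.1, 21.5, 9.83 and 11.2 TPM in replicates 1 to 6, a mean of 23.3 ± 11.8 TPM (SD, n = 6). Its values in replicates 1 to 3 were all above those in replicates 4 to 6. Krt27, a type I keratin of the inner root sheath of hair, was listed at 24.7, 12.5, 11.4, 13.3, 1.13 and 8.07 TPM, a mean of 11.8 ± 7.69 TPM (SD, n = 6). It spanned 21.8-fold, the widest range of the 9 genes, with replicate 1 highest and replicate 5 lowest. In GENCODE transcripts, 18.7% of its 25-base stretches also occur in Krt25, which was at 0 throughout. Krt10, the type I keratin of differentiating epidermis, was listed at 5.30, 5.77, 5.38, 7.75, 10.3 and 5.41 TPM, a mean of 6.66 ± 2.02 TPM (SD, n = 6), and was highest in replicates 4 and 5. Its epidermal type II partner Krt1 was listed at 0 in 5 libraries and at 0.78 TPM in replicate 5. An antisense gene, Gm11940, shares 146 exonic bases with Krt10, and whether the counting used strand is not stated. Krt7 exceeded Krt222 without overlap of their ranges. Krt222 exceeded Krt27 in 6 of 6 libraries and Krt27 exceeded Krt10 in 5 of 6, but the ranges of both pairs overlapped.

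The other 10 detected keratins were above 0 in 1 to 4 libraries and never above 9.03 TPM. Krt84, a type II keratin of hard epithelial structures, was the highest of them, at 9.03 TPM in replicate 3, 5.53 in replicate 6, 1.68 in replicate 4, 0.17 in replicate 5 and 0 in replicates 1 and 2. Its mean fell from 2.74 to 1.48 TPM without replicate 3. Krt12, the type I keratin of the corneal epithelium, was above 0 in 3 libraries at up to 0.32 TPM, and 48.3% of its 25-base stretches lie in the antisense gene A830036E02Rik. Krt35 was above 0 in 2 libraries. The remaining 7, Krt1, Krt15, Krt32, Krt39, Krt42, Krt79 and Krt85, were above 0 in 1 library each, at 0.17 to 4.52 TPM.

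The keratins of basal and activated stratified epithelium, Krt5, Krt14, Krt6a, Krt6b, Krt16 and Krt17, were listed at 0 in every library, as were Krt4 and Krt13 of the esophagus. Squamous cell markers were near 0 as well. Of 9 such genes found in the table, 5 were at 0 throughout, among them Trp63, the master transcription factor of stratified epithelium, and Ivl and Lor of the cornified envelope. The 9 genes summed to 1.27 to 4.42 TPM, and Sbsn was the only one above 0 in every library.

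**Figure D3:**
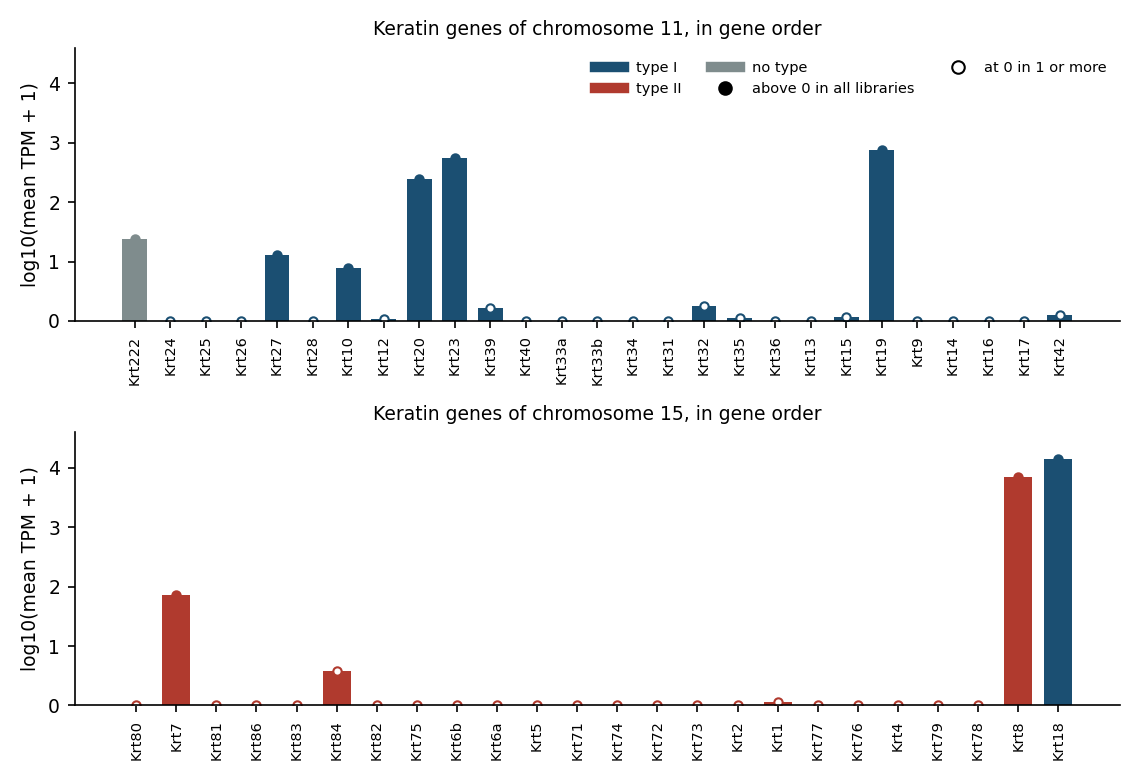
Mean level, as log10(mean TPM + 1) over 6 libraries, of the 51 keratins found in GENCODE M21, in their order on chromosomes 11 and 15. Filled points mark genes above 0 in all libraries. The 2 tallest bars, Krt8 and Krt18, stand side by side at the end of the chromosome 15 cluster, and most of the genes between the expressed ones are at 0.

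The gene positions matched the types assigned by number. Of the 51 keratins found in GENCODE M21 (Krt85 was not), 26 type I genes and Krt222 lie on chromosome 11 over 1037 kb, and 23 type II genes lie with Krt18 on chromosome 15 over 685 kb. Expressed genes were interleaved with genes at 0. Krt20 and Krt23 are next to each other, at 99428403 to 99438150 (ENSMUSG00000035775.2) and 99477974 to 99493137 (ENSMUSG00000006777.7) on chromosome 11, both on the minus strand. Krt19 (ENSMUSG00000020911.14, 100140810 to 100148665, minus strand) lies between Krt15, above 0 in 1 library, and Krt9, at 0 in all. Krt7 (ENSMUSG00000023039.17, chromosome 15, 101411043 to 101430313, plus strand) lies between Krt80 and Krt81, both at 0 in all. Of 52 keratin-associated protein genes (Krtap, which encode matrix proteins of hair), 50 were at 0 throughout, against 32.9% of all genes in the table. The only one above 0 in every library, named after its values were seen, was Krtap3-1, at 223, 203, 68.1, 58.7, 32.4 and 43.6 TPM in replicates 1 to 6, and it lies on chromosome 11 from 99566027 to 99566630, 22.9 kb beyond Krt40.

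Across libraries, Krt18, Krt8 and Krt23 had their 2 highest values in replicates 1 and 2. These were 3 of the 9 keratins above 0 in all libraries, against 15.5% of all genes above 0 in all libraries. Replicates 1 and 2 were also highest for 10 of the 13 tuft cell genes, for 1 of 8 enterocyte genes, 1 of 7 goblet cell genes, 0 of 7 Paneth cell genes and 2 of 6 stem cell genes. Rescaling without Rn45s and Gm20594 left replicates 1 and 2 highest for Krt18, Krt8 and Krt23, and then for Krt222 as well. Replicates 1 to 3 and 4 to 6 did not overlap for Krt18, Krt8 and Krt222, 3 of 9 keratins against 16.9% of the genes above 0 in all libraries. After that rescaling they did not overlap for Krt222 and Krt10, and they overlapped for Krt18 and Krt8. The coefficient of variation was 21.7% for Krt8 and 26.1% for Krt18, against a median of 23.9% over 1052 genes above 0 in all libraries and averaging 100 TPM or more.

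The relation of the 5 main keratins to a tuft list and an enterocyte list was computed over the 6 libraries, with those of Krt18 and Krt19 to Krt8, as 12 relations on the log2(TPM + 1) scale. Each list was summarised by its median in a library. None of the 12 had an adjusted p below 0.05, and 4 had an unadjusted exact permutation p below 0.05 by Pearson's r and 1 by Spearman's rho. Of these 4, 2 were relations of Krt18, to Krt8 and to the tuft list. Krt23 was higher where the tuft list was higher over the 6 libraries. Pearson's r was 0.978, with an exact permutation p of 0.0139 that rose to 0.05 on adjustment, and Spearman's rho was 0.771, with an exact p of 0.103 that rose to 0.247. Leaving out replicates 1 and 2, which lay farthest from the median on the x axis, gave r = 0.903. That value rests on replicate 4, with the list at 8.74 and Krt23 at 9.17. In replicates 6, 3 and 5 the list was at 8.05, 8.16 and 8.21, and Krt23 at 8.67, 8.65 and 8.51. Krt23 did not rise with the list among those libraries. The adjusted exact permutation p of Krt23 with the tuft list was 0.05 to 0.167 under the alternatives run. Krt19 was lower where the median of the enterocyte list was higher in these 6 libraries. Not every member followed that median. From replicate 1 to replicate 3, where the median was lowest, Fabp6 rose from 1477 to 1903 TPM and Alpi from 15.2 to 29.2 TPM. The other members, Fabp1, Apoa1, Apoa4, Sis, Slc10a2 and Lct, fell. For Krt19 and the list median r was -0.959, with an exact permutation p of 0.00556 that rose to 0.05 on adjustment. The Spearman coefficient was -0.886, with an exact p of 0.0333 that rose to 0.247, and r was -0.903 with replicates 3 and 4 left out. The adjusted exact permutation p of this relation by r was 0.0333 after either rescaling between libraries, and ran from 0.0333 to 0.167 over the alternatives. Krt19 also ran against the tuft list, with r = -0.456 as deposited (adjusted exact permutation p of 0.527). That r was -0.835 under median-of-ratios rescaling and -0.769 without Rn45s and Gm20594, with adjusted exact permutation p of 0.09 and 0.195. Centred within replicates 1 to 3 and 4 to 6 it was -0.877 (adjusted exact permutation p of 0.167). Whether the fall of Krt19 is particular to enterocyte genes was not tested.

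Krt18 fell into 2 separate sets of values, replicates 1 and 2 and the other 4, and neither set holds enough libraries for a correlation of its own. Its pooled correlations were computed among the 12 but no relation is read from them. For Krt8 and the tuft list r was 0.80 (exact permutation p of 0.0889, 0.213 once adjusted) and rho 0.714 (exact p of 0.136, 0.272 once adjusted). With replicates 1 and 2 left out r was -0.07, so the relation rests on these libraries. Krt20 and the enterocyte list had r = 0.666 (exact permutation p of 0.156, 0.311 once adjusted) and rho = 0.771 (exact p of 0.103, 0.247 once adjusted). The other relations, Krt18 left out, had unadjusted exact permutation p of at least 0.258 by r. TPM values of a library share 1 total, so a gene that takes more of it lowers the rest.

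**Figure D4:**
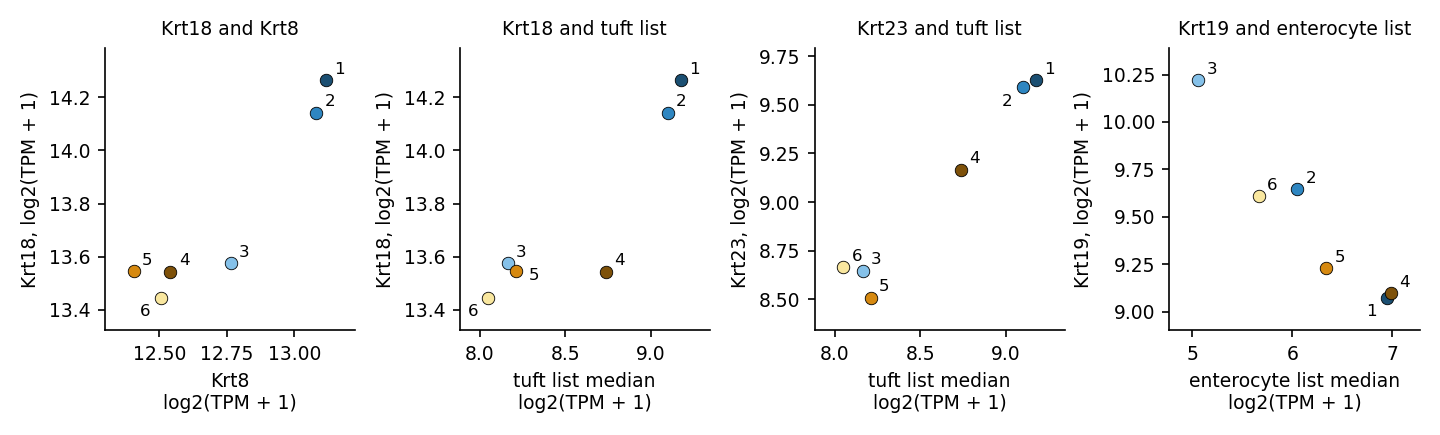
Levels of Krt18, Krt23 and Krt19 in each library on the log2(TPM + 1) scale, against Krt8 or the median of a marker list on the same scale, with replicate numbers beside the points. Replicates 1 and 2 stand apart for Krt18, and Krt19 runs from 9.07 in replicate 1 to 10.22 in replicate 3 as the enterocyte list falls from 6.95 to 5.06.

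Transcripts of genes whose proteins bind or anchor keratin filaments were present throughout. A list of plakins and other keratin-binding proteins held 15 genes, of which Krtcap2 and Krtcap3, keratinocyte-associated proteins, are not known to bind keratin filaments and were set aside after the values were seen. The other 13 genes were all above 0 in every library, and they summed to 1736 to 2223 TPM. Eppk1, the gene of epiplakin, which binds keratin filaments of simple epithelia, was the most abundant at 924 ± 171 TPM (SD, n = 6), followed by the 14-3-3 genes Ywhaz at 479 ± 111 TPM and Ywhae at 224 ± 47.4 TPM. Of 9 desmosome genes, whose products anchor keratin filaments at cell contacts, 8 were above 0 in every library, led by Perp at 159 ± 45.4 TPM, Jup at 116 ± 22.1 TPM and Dsc2 at 77.9 ± 24.7 TPM. Dsc3 was at 0 throughout. Of 15 other intermediate filament genes, 3 were above 0 in every library, all of them nuclear lamins, with Lmna at 105 ± 9.70 TPM, Lmnb2 at 36.0 ± 7.28 TPM and Lmnb1 at 15.4 ± 13.8 TPM (SD, n = 6 each). Vim, the vimentin gene of mesenchymal and blood cells, was at 0 in replicates 2 and 3 and at most 11.1 TPM, in replicate 5. Des, Nefm, Nefh, Ina, Nes and Synm were at 0 in every library. The share of all genes above 0 in every library was 47.2%.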

How the data were processed

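Per the study's methods, the authors aligned the read pairs of modified SMART-Seq2 libraries with Bowtie to mouse transcripts (UCSC, mm10), with 1 mismatch allowed and a limit on the number of alignments. They deposited gene expression as TPM from RSEM, which shares ambiguous reads among transcripts by estimation. The labels name further preparations and tools that the methods do not describe for these libraries. Strand use and gene filters are not stated.

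The deposited TPM were used as given. Columns were matched to replicates by number. Genes were compared within libraries on the log2(TPM + 1) scale by an exact sign-flip permutation test, two-sided, with 64 assignments. Correlations used exact permutation over 720 pairings. Benjamini-Hochberg adjustment covered 10 pairs and 12 relations. P-values measure the spread between these libraries only. The libraries are labelled as mouse replicates, and whether any were pooled is not stated. Type was set by number (1 to 8 and 71 to 90 type II, 9 to 42 type I). The rule for naming genes gave every keratin above 0 in all libraries in full, and the 3 most abundant genes of other lists. Of 14 tuft genes 13 were found, and 9 of 10 squamous genes. The keratins, the lists and the tests were chosen with earlier results of these data known. Alternatives were other pseudocounts, a filter on low values, 2 rescalings, the Mann-Whitney test, the list mean, centring within sets of libraries, leaving out libraries and other thresholds for a listed gene. The procedures were tested on simulated data. Tools were scipy 1.17.1, pandas 2.3.3 and numpy 2.4.6 in Python 3.11.15, with plots by matplotlib 3.10.9.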

Additional observations from a re-analysis of the deposited data

Results flagged for a closer look

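Of 22 keratin measures screened, 8 had 1 library farther from its nearest neighbour than Dixon's critical value for 6 libraries allows. For normally distributed values chance gives such a gap in about 1 of 20 groups (1.1 of 22). That number does not hold for genes that are mostly at 0. In 7 of them the gene was at 0 in the other 5 libraries, where the ratio is 1 by construction. These were Krt1 at 0.78 TPM and Krt32 at 4.52 TPM in replicate 5, Krt15 at 0.9 TPM in replicate 2, Krt39 at 3.9 TPM and Krt85 at 0.2 TPM in replicate 4, and Krt42 at 1.61 TPM and Krt79 at 0.17 TPM in replicate 3. Krt35 was at 0.68 TPM in replicate 6, at 0.13 TPM in replicate 2 and at 0 elsewhere, a ratio of 0.809 that also rests on values at 0. No keratin above 0 in all libraries, nor the ratio of Krt18 to Krt8, that of type I to type II or the keratin share of a library, passed the critical value.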

How the results depend on the processing

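The 9 pairs of keratins that differed kept their direction and their side of the adjusted threshold under both other pseudocounts, the low-value filter, both rescalings and the exact Mann-Whitney test, and Krt19 against Krt23 stayed above it. Leaving out libraries gives values without a test, since 5 libraries allow no p below 0.0625. Those differences stayed within 1 SD, as they did without replicates 1 and 2, an alternative added once the data had been examined, and the type I to type II ratio stayed between 2.18 and 2.28 under all alternatives run. Keratins above 0 in any library numbered 19 above 0.1 TPM, 13 above 1 TPM and 17 to 19 with 1 library left out (also added afterwards). The relation of Krt19 to the enterocyte list passed 0.05 after adjustment under median-of-ratios rescaling (r = -0.969) and without Rn45s and Gm20594 (r = -0.980). Relations far from the threshold changed sign, and the cause was not tested. With the list mean, r with the enterocyte list was -0.386 for Krt8 (0.108 with the median) and -0.0986 for Krt18 (0.373 with the median), which is pooled over the 2 sets of Krt18 values. Krt19 with Krt8, at 0.0775 as deposited, had -0.389 under median-of-ratios rescaling, -0.282 without Rn45s and Gm20594 and -0.772 when centred within replicates 1 to 3 and 4 to 6. With each library left out, r ran from -0.231 to 0.565 for Krt20 and the tuft list, from -0.295 to 0.341 for Krt8 and the enterocyte list and from -0.0867 to 0.503 for Krt19 and Krt8. The mean TPM of 7 of 19 keratins moved by more than 1 SD without Rn45s and Gm20594, which raises every value. The tests between genes are paired within libraries. With 1 group, there were no samples to pair between groups. Depth is unknown from TPM, so the limit of detection behind a 0 cannot be stated.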
